A study of Mus musculus with 16 samples.

Results

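Metallothioneins are small intracellular proteins that bind zinc, copper and other metal ions through cysteine residues. The 3 members described here are Mt1, Mt2 and Mt3, taken as the rows with these symbols among the 24421 genes of each deposited table. RNA of the somatosensory cortex had been sequenced from male mice aged 2 to 3 months, all collected at ZT4 (ZT0 is light onset). The 4 groups were undisturbed wild-type C57BL/6 controls (CTL-WT), wild-type mice after sleep disruption (SD-WT), undisturbed homozygous AcPb-/- mice (CTL-AcPbKO) and AcPb-/- mice after SD (SD-AcPbKO). SD was 8 h of gentle handling from ZT20 to ZT4. AcPb is the neuronal isoform of the interleukin-1 receptor accessory protein, and the AcPb-/- mice had been bred for several generations apart from their source colony. Each group had 3 libraries, 1 per mouse. The comparisons ask whether the metallothionein mRNAs differed after SD, whether they differed between genotypes, and whether the SD effect differed between genotypes.

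In the brain, Mt1 and Mt2 are found largely in astrocytes, ependyma and vessels, and are known for their induction by zinc and other metals, glucocorticoids, cytokines and oxidative stress. Metal induction runs through the zinc-sensing transcription factor MTF1, which binds metal response elements in the promoters of the genes. Mt3, first known as a growth inhibitory factor, is the brain-enriched member, is made in astrocytes and in zinc-rich neurons, and is known to respond little to metals.

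The genes lie in 1 cluster on the plus strand of chromosome 8 (GRCm38/mm10, GENCODE M21) and each has 3 exons in its principal transcript. Mt3 occupies chr8:94152607-94154146, Mt2 chr8:94172664-94173568 and Mt1 chr8:94179082-94180327. Mt4, a member made in stratified epithelium, lies at chr8:94137197-94139031. The gap between Mt2 and Mt1 is 5513 bases and that between Mt3 and Mt2 is 18517 bases. Mt1 and Mt2 each encode 61 codons and Mt3 encodes 68, and each of the 3 coding sequences holds 20 cysteine codons. The coding sequences of Mt1 and Mt2 are 79.2% identical, those of Mt1 and Mt3 65.7% and those of Mt2 and Mt3 67.2%. No stretch of 100 exon bases of a member occurs in another gene on the same strand. The antisense gene Gm45774 covers 355 exon bases of Mt2 and has no row of its own. The kit marks strand but the strand setting of the counting is not given in the sources used here, so reads of Gm45774 could not be told apart from those of Mt2.

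The promoters are shown because metal induction is known to run through letters in and near them. Each is the 250 bases before the RefSeq transcription start (GRCm38.p6, plus strand, 5′ to 3′), at chr8:94178839-94179088 for Mt1, chr8:94172368-94172617 for Mt2 and chr8:94152357-94152606 for Mt3. Capitals mark matches to the core of the metal response element, searched as TGCACNC or TGCGCNC on both strands.
Mt1: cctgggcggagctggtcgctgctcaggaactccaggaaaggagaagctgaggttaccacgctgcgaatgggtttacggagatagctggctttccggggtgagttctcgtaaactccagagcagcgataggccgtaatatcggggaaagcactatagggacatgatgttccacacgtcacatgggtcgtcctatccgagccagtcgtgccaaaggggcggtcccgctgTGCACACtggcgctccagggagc
Mt2: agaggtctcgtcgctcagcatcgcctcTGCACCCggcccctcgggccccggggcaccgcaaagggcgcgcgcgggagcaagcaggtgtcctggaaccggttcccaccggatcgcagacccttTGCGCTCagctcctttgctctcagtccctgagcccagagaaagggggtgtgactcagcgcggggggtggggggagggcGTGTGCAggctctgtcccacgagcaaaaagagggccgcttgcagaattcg
Mt3: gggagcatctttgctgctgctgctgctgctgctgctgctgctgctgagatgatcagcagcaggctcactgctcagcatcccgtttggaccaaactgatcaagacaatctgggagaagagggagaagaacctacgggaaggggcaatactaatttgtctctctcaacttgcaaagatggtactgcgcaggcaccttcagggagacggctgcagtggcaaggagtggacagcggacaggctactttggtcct
The Mt1 window held 1 match, at bases -23 to -17 from the start. The Mt2 window held 3, at bases -223 to -217, -128 to -122 and, on the minus strand, -50 to -44. No match lay in the Mt3 window. The counts depend on the window, since the transcribed leader between the GENCODE start and the coding start held 4 matches in Mt1 (229 bases), 3 in Mt2 (184 bases) and 3 in Mt3 (193 bases), so all 3 members had matches near their start. Other annotated transcripts start inside these leaders, at chr8:94179211 and chr8:94179241 in Mt1 and chr8:94152746 in Mt3. Matches counted in the leader may thus lie before the start of such a transcript. The bases of Mt2 between its RefSeq start (chr8:94172618) and its GENCODE start (chr8:94172664) were not searched. Of 32851 promoters of 250 bases, 21.41% held at least 1 match and 1.26% at least 3. The antioxidant response element, searched as TGACNNNGC on both strands, matched once in the Mt2 window (bases -79 to -71), against 10.16% of all promoters. Neither the Mt1 nor the Mt3 window held a match. The transcribed leaders were not searched for this element, so its absence holds for the windows only. A match is a description of letters and was not tested for binding.

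The libraries held 32870075 to 41615582 reads on genes in CTL-WT, 58770286 to 71775967 in SD-WT, 26504840 to 35683409 in CTL-AcPbKO and 63413467 to 71857505 in SD-AcPbKO. The smallest SD library was thus 1.41 times the largest control library. All samples are labelled male, yet 4 of the 12 libraries held 25352 to 39358 reads of Xist, the RNA of the inactive X chromosome, with 0 to 2 reads in all on 4 Y-linked genes. The other 8 held 5 to 13 Xist reads and 5105 to 10593 reads on the Y-linked genes. The libraries with Xist were CTL-WT replicates 02 and 03 and CTL-AcPbKO replicates 04 and 05, so they were all controls. The SD effects of the members are given with and without them, as are the numbers of metal handling genes and of all genes called. Single genes of the lists, glucocorticoid-induced genes and cell type markers are given only with them. Il1rap, the gene that carries the AcPb isoform, averaged 1497 normalized counts in CTL-WT and 1584 in CTL-AcPbKO, and 1825 and 1971 after SD. This row counts all isoforms, so it does not check the deletion.

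Each library held 1084 to 8877 reads of each member, and the counting error of the lowest value is 3.04%. Mt1, Mt2 and Mt3 together took 0.0217% to 0.0302% of the reads. Mt4 had 5 reads over the 12 libraries and at most 1 in any of them, which was too few for any comparison. Levels below are normalized counts, the reads divided by 1 size factor per library set over all 12 libraries together.

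In wild-type mice Mt1 was higher after SD. CTL-WT replicates 01, 02 and 03 had 5168.4, 4410.0 and 3780.7 normalized counts of Mt1. SD-WT replicates 01, 02 and 04 had 5982.5, 6484.8 and 4862.4. Both of the first SD libraries lay above every control, whereas replicate 04 lay below control replicate 01, so the groups overlapped. Mt2 was also higher. Its controls held 2734.2, 2069.1 and 2059.7 normalized counts, and the SD libraries 2779.3, 3255.7 and 3338.4. Here all SD libraries lay above all controls, the nearest pair being SD replicate 01 and control replicate 01. How many of all genes separate their groups in this way was not counted. Mt3 was lower. Its controls held 6430.5, 5920.0 and 5115.1 normalized counts, and the SD libraries 4865.8, 4615.8 and 5125.3. Replicate 04 after SD and control replicate 03 lay side by side on this scale, and the other SD libraries lay below all controls.

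The tests used the deposited values of these 6 libraries, on the log2 scale of the normalized count plus 1, in limma over 20417 genes with Benjamini-Hochberg adjustment and a threshold of 0.05. Mt1 was 1.30-fold higher after SD (log2 fold change 0.38, SE 0.12, adjusted p = 0.0470). Mt2 was 1.37-fold higher (log2 fold change 0.46, SE 0.11, limma adjusted p = 0.0146). Mt3 fell to 0.839 of its control level (log2 fold change -0.25, SE 0.08, limma adjusted p = 0.0470). All 3 members thus passed the threshold, 2 higher and 1 lower. Of all genes tested, 13.2% were called higher and 12.2% lower, so a call in either direction was common.

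The calls for Mt1 and Mt3 lay just under the threshold and were lost when single libraries were left out. Mt1 lost its call without CTL-WT replicate 02 or 03 or SD-WT replicate 01 or 02 (limma adjusted p of 0.125, 0.146, 0.146 and 0.183). Mt2 lost its call without CTL-WT replicate 02 (0.0720) or SD-WT replicate 02 (0.0649). Mt3 lost its call without CTL-WT replicate 01 or 02 or SD-WT replicate 01 or 02 (0.143, 0.147, 0.125 and 0.168). The direction of each member was kept in every such fit.

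**Figure D1:**
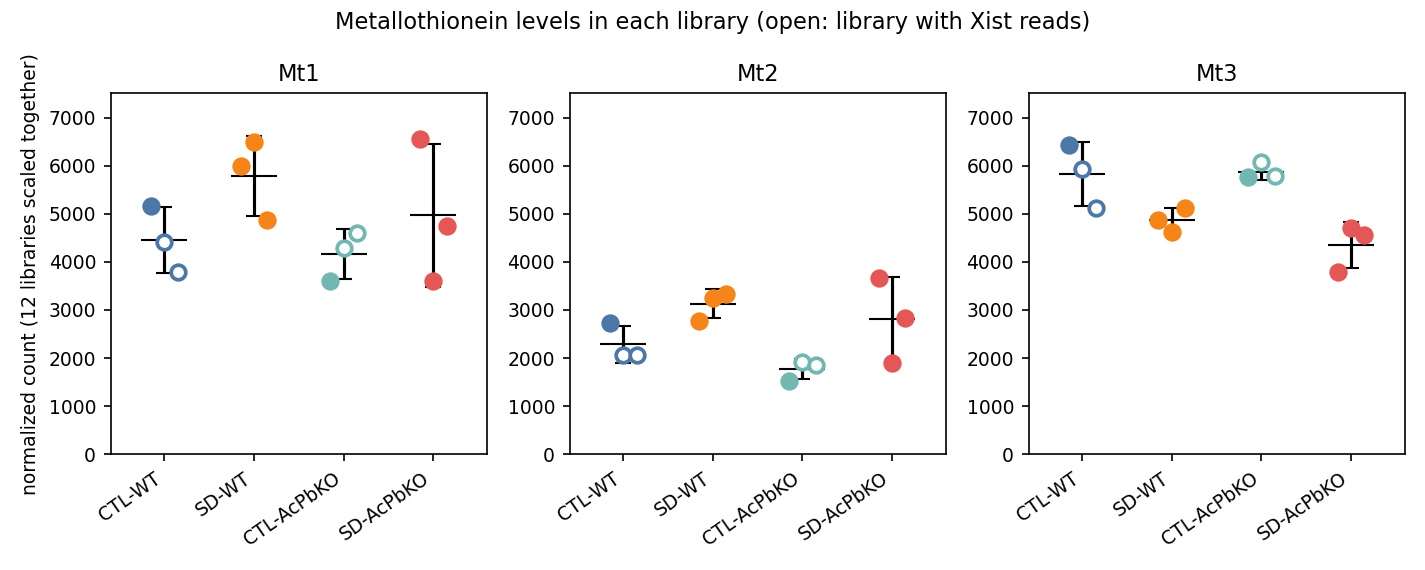
Normalized counts of Mt1, Mt2 and Mt3 (y axis, from 0) in each of the 12 libraries by group (x axis), with the mean (long bar) and SD (error bar) of 3 libraries and open circles for libraries with Xist. Mt1 and Mt2 means are higher and Mt3 means lower after SD in both genotypes, and the SD-AcPbKO libraries spread from 3608.9 to 6561.8 in Mt1.

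In AcPb-/- mice Mt3 was lower after SD in every library. CTL-AcPbKO replicates 03, 04 and 05 had 5767.5, 6068.7 and 5778.5 normalized counts of Mt3, and SD-AcPbKO replicates 02, 03 and 04 had 3795.1, 4705.0 and 4551.0. The groups did not overlap, and the share of all genes without overlap was not counted. For Mt2 the controls had 1525.0, 1914.0 and 1846.5 normalized counts and the SD libraries 3667.3, 1901.6 and 2842.0. SD replicate 03 lay within the range of the controls, and replicates 02 and 04 lay far above it. Mt1 had 3596.7, 4278.3 and 4604.1 normalized counts in undisturbed mice, and 6561.8, 3608.9 and 4737.6 in mice after SD. Replicate 03 was again the low SD library and lay beside the lowest control.

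In the limma test of these 6 libraries (20574 genes), Mt3 fell to 0.739 of its control level (log2 fold change -0.44, SE 0.08, adjusted p = 0.00599), and it was called without any single library, with adjusted p from 0.00597 to 0.0328. Mt2 was 1.55 times its control level (log2 fold change 0.63, SE 0.21) and missed the threshold at a limma adjusted p of 0.0523. Mt1 was 1.17 times its control level (log2 fold change 0.22, SE 0.19, limma adjusted p = 0.436), with a 95% interval of the log2 fold change from -0.21 to 0.66. So 1 of 3 members was called, and it was lower. Of all genes tested, 14.1% were called higher and 13.3% lower. Without SD replicate 03 the log2 fold change of Mt2 was 0.88 with a limma adjusted p of 0.00418, and that of Mt1 was 0.43 and was not called. Mt2 was called by DESeq2 (log2 fold change 0.67, adjusted p = 0.0458) and edgeR (0.67, adjusted p = 0.0272) on the recovered reads.

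Mt1 and Mt2 moved together from library to library. Pearson's r of their log2 levels was 0.848 over the 12 libraries and 0.821 once each group's mean was taken out, which is given as a description since the libraries share their scaling. Mt3 did not follow them. Its r was -0.465 with Mt1 and -0.600 with Mt2, and -0.316 and -0.226 once the group means were taken out. The ratio of Mt1 plus Mt2 to Mt3 was 1.229, 1.094 and 1.142 in CTL-WT replicates 01, 02 and 03 and 1.801, 2.110 and 1.600 in SD-WT replicates 01, 02 and 04. It was 0.888, 1.020 and 1.116 in CTL-AcPbKO replicates 03, 04 and 05 and 2.695, 1.171 and 1.665 in SD-AcPbKO replicates 02, 03 and 04. Within each genotype the ratio was higher in every SD library than in every control, and 5 of the 6 SD libraries lay above all 6 controls. The ratio was not tested. It sets the members that were higher over the member that was lower, so its separation restates those directions. Its lower term is Mt3, whose fall cannot be told apart from the GC trend of the libraries (below). The ratio of Mt1 to Mt2 was 1.952 ± 0.157 in CTL-WT, 1.867 ± 0.364 in SD-WT, 2.362 ± 0.129 in CTL-AcPbKO and 1.785 ± 0.116 in SD-AcPbKO (mean ± SD, n = 3).

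Levels can be compared between the members only per length, here as normalized counts per kb of the principal transcript (549, 511 and 536 bases for Mt1, Mt2 and Mt3). In CTL-WT, Mt3 had 10862 ± 1237, Mt1 8111 ± 1266 and Mt2 4477 ± 757 normalized counts per kb (mean ± SD, n = 3). In CTL-AcPbKO, Mt3 had 10954 ± 319, Mt1 7577 ± 936 and Mt2 3448 ± 407. Mt3 was above Mt1 and Mt2 was lowest in all 6 controls. In SD-WT the means were 10522 ± 1513 for Mt1, 9084 ± 475 for Mt3 and 6114 ± 591 for Mt2. In SD-AcPbKO they were 9052 ± 2714, 8116 ± 909 and 5487 ± 1729 in the same order. Mt1 was above Mt3 in 4 of the 6 SD libraries, and Mt2 was lowest in 5 of the 6.

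Mt3 is short and rich in GC. Its transcript has a GC content of 62.3%, above that of 98.0% of the 23376 genes that could be matched to the annotation, and only 7.5% of them are shorter. When the trend of each library's log2 values with GC content and length was removed before the test, the SD effect on Mt3 in wild-type mice was 0.03 on the log2 scale (limma adjusted p = 0.832) and that in AcPb-/- mice was -0.06 (0.365). Removal of the GC trend alone gave -0.02 (0.882) and -0.09 (0.331), and removal of the length trend alone gave -0.17 (0.146) and -0.37 (0.00291). The fall of Mt3 and the GC trend of the libraries cannot be told apart in these data. Mt1 and Mt2 did not lose their SD effect in this way. With both trends removed, the log2 fold changes in wild-type mice were 0.43 for Mt1 (limma adjusted p = 0.0327) and 0.57 for Mt2 (0.00753). In AcPb-/- mice that of Mt2 was 0.76 (0.0476) and that of Mt1 was not called. These fits kept only matched genes with a mean of at least 10. Under that filter Mt2 was called in AcPb-/- mice with no trend removed (0.63, limma adjusted p = 0.0452). With principal transcripts in place of the longest, Mt2 was not called in AcPb-/- mice (0.75, limma adjusted p = 0.0511).

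The libraries with Xist, all of them controls, also bear on the SD effects. In a fit of all 12 libraries with a term for Xist, the SD effects in wild-type mice were 0.36 for Mt1, 0.42 for Mt2 and -0.32 for Mt3 on the log2 scale (limma adjusted p of 0.308, 0.245 and 0.0613). The fit without that term gave no call in wild-type mice either (0.167, 0.102 and 0.0587). In AcPb-/- mice the effects with the term were 0.21, 0.59 and -0.50, and Mt3 was called (0.00572). Leaving out the 4 libraries left 1 control in each genotype, assumed to vary like the other groups. The wild-type effects were then 0.15, 0.19 and -0.40 (limma adjusted p of 0.814, 0.770 and 0.128), and those in AcPb-/- mice were 0.42 for Mt1, 0.83 for Mt2 and -0.41 for Mt3, none called. The remaining wild-type control, replicate 01, had the highest level of each member among the wild-type controls, whereas the remaining AcPb-/- control, replicate 03, had the lowest.

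**Figure D2:**
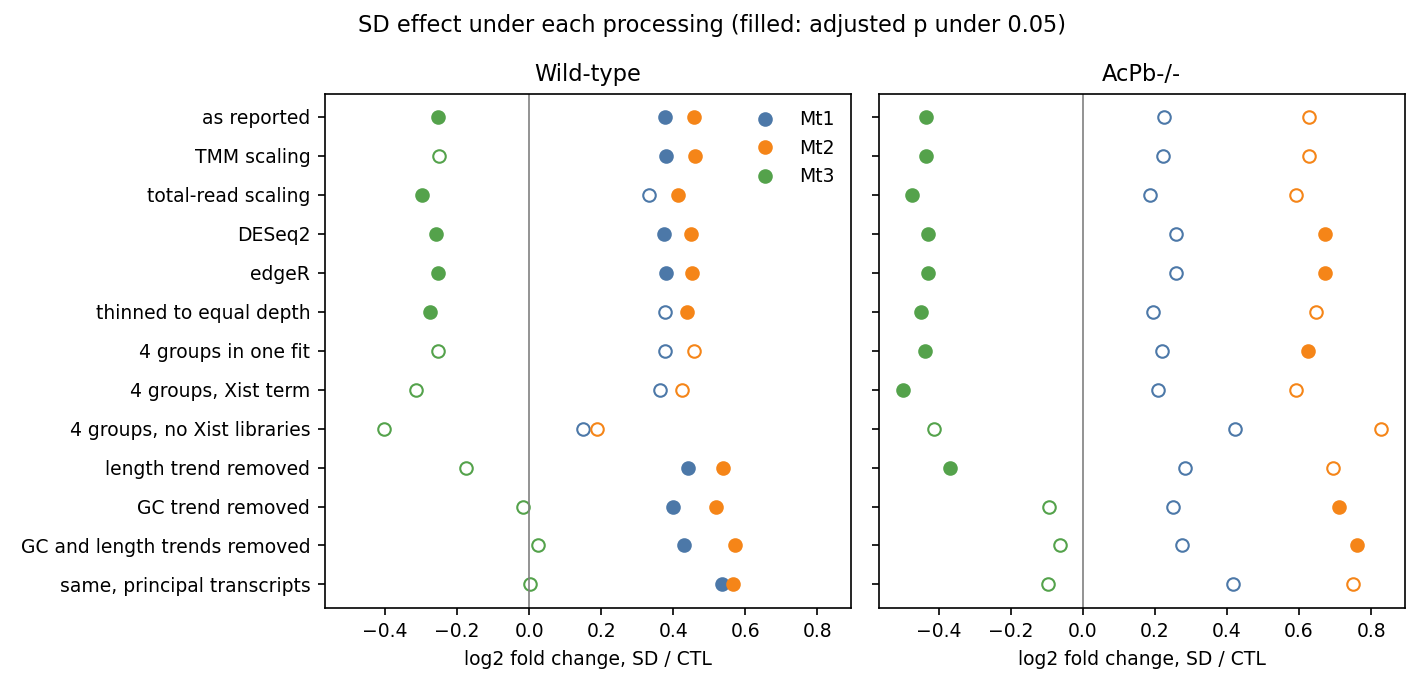
Log2 fold change of SD over control (x axis) for Mt1, Mt2 and Mt3 in wild-type (left) and AcPb-/- mice (right) under 13 ways of processing (y axis), with filled circles where the adjusted p was under 0.05. Mt1 and Mt2 stay above 0 in each of those shown, and Mt3 lies near 0 where the GC trend was removed.

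Between genotypes no member was called. In undisturbed mice Mt2 averaged 2288 ± 387 normalized counts in CTL-WT and 1762 ± 208 in CTL-AcPbKO (mean ± SD, n = 3). The log2 difference was -0.37 (SE 0.12) with an unadjusted limma p of 0.0125 and an adjusted p of 0.456. Mt1 averaged 4453 ± 695 and 4160 ± 514 (log2 difference -0.09, limma adjusted p = 0.848), and Mt3 5822 ± 663 and 5872 ± 171 (0.02, adjusted p = 0.960). The log2 difference of Mt2 was -0.24 without CTL-WT replicate 01 and -0.84 without the libraries with Xist, and it was not called in either fit. Of all genes tested, 0.0197% (4 genes) were called in this comparison, against 168 genes without CTL-AcPbKO replicate 03 and 104 with DESeq2.

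After SD, Mt1 averaged 5777 ± 831 normalized counts in SD-WT and 4969 ± 1490 in SD-AcPbKO, Mt2 3124 ± 302 and 2804 ± 883, and Mt3 4869 ± 255 and 4350 ± 487 (mean ± SD, n = 3). The log2 differences of AcPb-/- from wild-type mice were -0.25, -0.20 and -0.17, with limma adjusted p of 0.900, 0.923 and 0.861. Here 0.0145% of all genes (3 genes) were called, against 99 with DESeq2. The order of the group means was SD-WT, SD-AcPbKO, CTL-WT and CTL-AcPbKO from high to low in both Mt1 and Mt2, and CTL-AcPbKO, CTL-WT, SD-WT and SD-AcPbKO in Mt3. The tests did not separate neighbours of the same condition in any member. SD-AcPbKO and CTL-WT, neighbours in Mt1 and Mt2, differ in both genotype and SD and were not tested, whereas CTL-WT and SD-WT, neighbours in Mt3, were called apart.

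The SD effect could not be shown to differ between genotypes in any member. The difference of the log2 SD effects, AcPb-/- minus wild-type, was -0.16 for Mt1 (95% interval -0.72 to 0.41), 0.17 for Mt2 (-0.42 to 0.75) and -0.19 for Mt3 (-0.46 to 0.09), each with an adjusted p of 0.986 in the limma fit of 12 libraries. These intervals leave room for differences as large as the SD effects themselves. Of 20978 genes, 0% were called, with 839 at an unadjusted p under 0.05, and 1 was called by DESeq2 and 0 by edgeR.

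**Figure D3:**
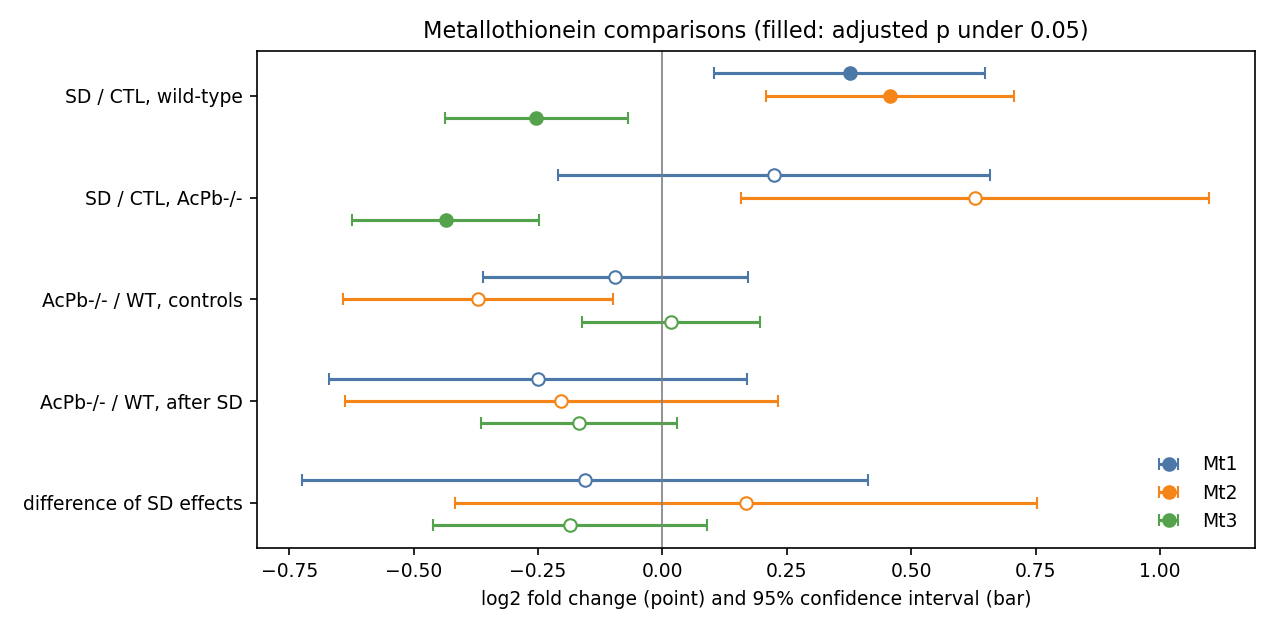
Log2 fold change (x axis, points) with its 95% confidence interval (bars) of Mt1, Mt2 and Mt3 in the 4 comparisons of 2 groups and for the difference of the SD effects (y axis), with filled circles where the adjusted p was under 0.05. The SD effects of Mt1 and Mt2 lie to the right of 0 and those of Mt3 to the left, and the intervals for the difference of the SD effects all include 0.

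Genes that handle zinc and copper around the metallothioneins were described from 4 lists of 40 genes in all. After SD, 4 were higher and 10 lower in wild-type mice, and 3 were higher and 11 lower in AcPb-/- mice. Over all genes tested, 13.2% were higher and 12.2% lower in wild-type mice and 14.1% and 13.3% in AcPb-/- mice. Against these shares the counts of higher genes did not exceed the background, whereas those of lower genes lay above it in both genotypes. The shares take in genes with few reads, however. With a mean of at least 10, 5445 of 16062 genes were called in either direction in wild-type mice and 5992 of 16074 in AcPb-/- mice. The listed genes then gave 14 calls in each genotype. Directions were not counted at this filter, so an excess of lower genes is not shown for it. The lists were not tested as sets. Their median log2 fold change was -0.09 in wild-type and -0.08 in AcPb-/- mice, against -0.0039 and 0.01 over all genes tested. None of the 40 was called between genotypes or for the difference of the SD effects. With the GC and length trends removed, 12 were called after SD in wild-type and 16 in AcPb-/- mice, in directions that were not counted. The changes of single listed genes below are from fits without this removal. The part of the GC and length trends in them was not tested. The 8 libraries without Xist gave 1 call in wild-type and 3 in AcPb-/- mice, and the 12 libraries with a term for Xist gave 10 and 14.

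Of the 10 zinc exporters of the SLC30 family, 2 were higher and 3 lower in wild-type mice. In AcPb-/- mice 1 was higher and 3 lower. Of all genes, 13.2% were called higher and 12.2% lower in wild-type mice, and 14.1% and 13.3% in AcPb-/- mice. Slc30a1, the zinc exporter of the plasma membrane and itself a target of MTF1, fell by 0.45 on the log2 scale in wild-type and by 0.54 in AcPb-/- mice (limma adjusted p of 0.00464 and 0.00190). Slc30a10, a manganese exporter, fell by 0.42 and by 0.50 on the log2 scale. Slc30a2, which loads zinc into vesicles, had log2 fold changes of 0.41 and 0.56. Slc30a3, which fills the synaptic vesicles of zinc-releasing neurons, was called in wild-type mice with a log2 fold change of 0.25. Slc30a9 fell by 0.17 on the log2 scale in AcPb-/- mice.

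Of the 14 importers of the SLC39 family, 1 was higher and 4 lower in each genotype. The shares of all genes were 13.2% higher and 12.2% lower in wild-type and 14.1% and 13.3% in AcPb-/- mice. Slc39a8, which brings in zinc and manganese, fell by 0.52 on the log2 scale in wild-type and by 0.62 in AcPb-/- mice, and Slc39a3 fell by 0.40 and by 0.53. Slc39a5 fell by 1.06 and by 1.44 on that scale from means of 36.4 and 34.4 normalized counts. Slc39a11 was called lower in wild-type mice (-0.43), and Slc39a2 was called higher with 0.35 in AcPb-/- mice.

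Of 9 genes of copper handling, 1 was higher and 2 lower in each genotype, against 13.2% higher and 12.2% lower of all genes in wild-type mice. In AcPb-/- mice these shares were 14.1% and 13.3%. Atox1, the copper chaperone that serves the copper pumps, fell by 0.43 and by 0.62 on the log2 scale. Ccs, the copper chaperone of superoxide dismutase, fell by 0.35 and by 0.46. Atp7a, a copper-exporting pump, was higher, with log2 fold changes of 0.34 and 0.45. Of 7 transcription factors that act on metallothionein promoters, Usf1 was called lower in both genotypes (-0.22 and -0.29) and Usf2 in AcPb-/- mice (-0.25). Mtf1 and the glucocorticoid receptor gene Nr3c1, picked out by their role and after their values were seen, were not called. The log2 fold changes of Mtf1 were 0.13 and 0.11 (limma adjusted p of 0.188 and 0.209), and those of Nr3c1 were -0.18 and -0.18 (0.0930 and 0.105).

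**Figure D4:**
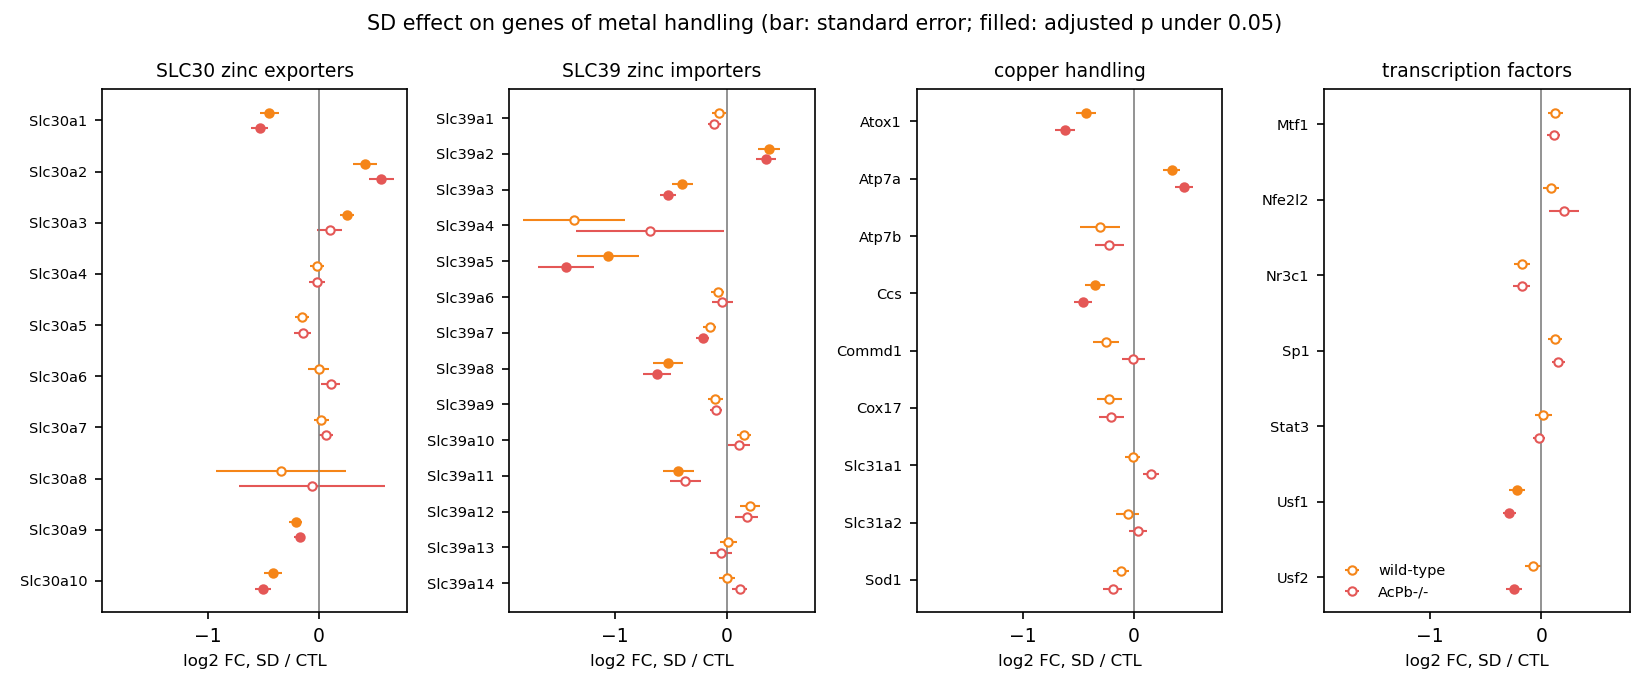
Log2 fold change of SD over control (x axis) with its standard error (bars) for the 40 listed genes of zinc and copper handling (y axis) in wild-type (upper point of each pair) and AcPb-/- mice (lower point), with filled circles where the adjusted p was under 0.05. Slc30a1, Slc30a10, Slc39a3, Slc39a8, Atox1 and Ccs lie to the left of 0 in both genotypes, and Slc30a2, Slc39a2 and Atp7a to the right.

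Of 12 genes known to be induced by glucocorticoids, 7 were higher and 0 lower in each genotype, against 13.2% and 14.1% of all genes called higher. Plin4, a lipid droplet protein, had log2 fold changes of 2.91 and 2.77, and Fkbp5, a co-chaperone of the receptor, 1.24 and 1.18. The summed level of the list was 14028 to 21512 normalized counts in CTL-WT, 26636 to 31002 in SD-WT, 13819 to 22961 in CTL-AcPbKO and 24304 to 32038 in SD-AcPbKO. In SD-AcPbKO replicate 03, the library with the lowest Mt1 and Mt2 after SD, it was also lowest (24304), and in replicate 02, with the highest Mt1 and Mt2, it was highest (32038). In SD-WT, replicate 04 had the lowest sum (26636) and the lowest Mt1 but the highest Mt2. In the controls it was lowest in the pair without Xist, CTL-WT replicate 01 (14028) and CTL-AcPbKO replicate 03 (13819), which were the highest and the lowest of their groups in Mt2. The part of this list in the metallothionein results was not tested.

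Marker genes of the cell types that express metallothioneins were compared in the same libraries, and their counts stand against 13.2% of all genes called higher and 12.2% lower in wild-type and 14.1% and 13.3% in AcPb-/- mice. Of 14 astrocyte markers, 2 were higher and 4 lower in wild-type mice and 1 was higher and 3 lower in AcPb-/- mice. Their summed level was 315435 to 358650 normalized counts in CTL-WT, 321388 to 365065 in SD-WT, 307600 to 357786 in CTL-AcPbKO and 316865 to 336305 in SD-AcPbKO, so the ranges overlapped. Of 12 neuron markers, 2 were higher in wild-type and 4 in AcPb-/- mice, with 0 lower, and their sums ranged from 619270 to 641384, 615133 to 713699, 598500 to 683565 and 644326 to 713810 in the same order of groups. Of 10 endothelial markers, 4 were higher and 2 lower in wild-type and 3 higher and 2 lower in AcPb-/- mice, with sums of 20548 to 22488, 21321 to 26034, 19929 to 23333 and 20469 to 23346.

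Of 9 microglia markers, 1 was higher and 1 lower in wild-type mice, with sums of 18186 to 19408 in the controls and 17089 to 18458 after SD, and 3 were lower in AcPb-/- mice, where the sums were 17706 to 18606 in the controls and 13395 to 16128 after SD. Of 9 oligodendrocyte markers, 6 were lower in wild-type and 2 in AcPb-/- mice, with sums of 111554 to 142723, 89819 to 123151, 56460 to 129725 and 72176 to 108200. Of 9 meningeal markers, 3 were lower in wild-type and 2 in AcPb-/- mice, with sums between 31566 and 51008 in all libraries. Choroid plexus markers (8 genes) had 1 call, higher in wild-type mice, and their sum was 38716 in SD-AcPbKO replicate 04 against 10440 to 13595 in the other libraries. Of 9 striatal markers, 2 were lower in wild-type and 0 were called in AcPb-/- mice, with sums from 12682 to 26327. Of 5 red blood cell genes, 4 were at 0 in all libraries and the remaining gene was not called. In bulk tissue fewer cells of a type and less RNA per cell cannot be told apart, and the part of these cell types in the metallothionein results was not tested.

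The genes whose log2 levels followed each member most closely over the 12 libraries were taken from 12518 genes with a mean of at least 100 normalized counts. For Mt1 they were Kirrel2 (Pearson's r = 0.930), Tlr7 (0.925), Add2 (0.911), Ppp6r3 (0.901) and Heatr5b (0.900). For Mt2 they were Eapp (0.948), Dnajc15 (0.936), Zfp644 (0.935), Kif3b (0.929) and Zfp770 (0.927). For Mt3 they were Phgdh (0.980), an enzyme of serine synthesis made in astrocytes, Mocs1 (0.977), Crip2 (0.969), Cd151 (0.967) and Fance (0.966). The lists shared no gene. These values are descriptions over libraries that share SD, depth and base composition trends.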

How the data were processed

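Per the labels and the paper's methods, the authors prepared libraries of somatosensory cortex RNA with a stranded mRNA kit, sequenced them as paired-end 100 bp reads, aligned them with HISAT2 (2.2.1) to mm10 and made pairwise comparisons of groups in DESeq2 (1.31.16). The counting tool is HTSeq in the paper and featureCounts in the submitters' processing notes, and the annotation is not given in the sources used here. The deposited values are signal, read counts per gene divided by a size factor per library, in 5 tables of 24421 genes. Their columns of mean, fold change, standard error, statistic and p-values of the authors' own comparisons were not used. Of 16 labelled samples, 12 have a column, and the other 4 were not analysed here. The table that compares SD-AcPbKO with CTL-WT differs in genotype and SD together and was used for read recovery only.

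Undoing the size factors gave reads within 0.01 of a whole number for 100.0% of 732630 values, and 0 differed between tables. Replicates all differed by more than sampling noise. The plan named edgeR for raw counts and limma for normalized values. The tests were limma (3.58.1, R 4.3.3) with a variance trend on log2(normalized count + 1), over all genes with any read in the comparison, two-sided, with Benjamini-Hochberg adjustment, a threshold of 0.05 and 4 residual degrees of freedom. This scale understates changes of low genes. The difference of SD effects and the levels across groups used reads scaled together by DESeq2 (1.42.0) size factors (8 residual degrees of freedom). Gene lists cover zinc exporters, zinc importers, copper handling, metallothionein transcription factors, glucocorticoid-induced genes and 9 sets of cell type markers. The members and lists were chosen with earlier results of these data known. Named were the members, Mt4, Il1rap, Xist, at most the 4 largest called changes of each list other than markers in a comparison, and the 5 genes most correlated with each member. Annotation was GENCODE M21, in which 23376 symbols (95.7%) were found, and promoters are from RefSeq. GC and length trends were removed by loess (span 0.3) over the longest transcripts, and only matched genes with a mean of at least 10 were then tested.

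Alternatives were other filters, pseudocounts of 0.1 and 10, no variance trend, other scalings, edgeR (4.0.16) and DESeq2 on recovered reads, thinning (seed 1), 1 fit of all groups, a term for Xist, no libraries with Xist, a replicate block, and leaving out each library. Removal of the GC or length trend alone and the use of principal transcripts were added after the data were seen. In simulated data 200 genes, drawn from those with higher counts, were changed by 1 on the log2 scale, with the same dispersion for all genes. Of these, 191 were recovered in the wild-type comparison (20063 genes, 6 false calls) and 86 for the difference of SD effects (20614 genes, 4 false calls). The changes of the members were smaller, so these counts do not give the power for them. Recovery and figures used Python 3.11.15, NumPy 2.4.6, pandas 2.3.3, Biopython 1.88 and matplotlib 3.10.9.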

Additional observations from a re-analysis of the deposited data

How the results depend on the processing

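In wild-type mice, at an adjusted p under 0.01 the log2 SD effects of Mt1 (0.38), Mt2 (0.46) and Mt3 (-0.25) were no longer called, nor were they, with the same values, without a filter on low values (adjusted p of 0.231, 0.124 and 0.177) or without a variance trend (0.179, 0.0959 and 0.161). Mt1 (0.38) and Mt3 (-0.25) were not called at pseudocounts of 0.1 (0.0536 and 0.0520) and 10 (0.0645 and 0.0568), Mt3 (-0.25) with TMM scaling (0.0512), and Mt1 when scaled to total reads (0.33, adjusted p = 0.0622) or thinned (0.38, adjusted p = 0.0647). In 1 fit of 4 groups Mt1 (0.38), Mt2 (0.46) and Mt3 (-0.25) lost their calls (0.167, 0.102 and 0.0587), as with a term for Xist (0.36, 0.42 and -0.32) and without the libraries with Xist (0.15, 0.19 and -0.40). Mt3 was 0.0252 with the GC and length trends removed, -0.0175 with GC alone, -0.17 with length alone and 0.0018 with principal transcripts. Without single libraries the effects ranged from 0.26 to 0.50 for Mt1, 0.39 to 0.59 for Mt2 and -0.34 to -0.18 for Mt3.

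In AcPb-/- mice Mt2 became called with a mean of at least 10 (0.63, adjusted p = 0.0452), DESeq2 (0.67), edgeR (0.67) and 1 fit of 4 groups (0.63, adjusted p = 0.0244). It was also called with both trends removed (0.76) or GC alone (0.71). With length alone removed (0.70, limma adjusted p = 0.0524) or principal transcripts (0.75, limma adjusted p = 0.0511) it was not called. Mt3 lost its call without the libraries with Xist (-0.41) and with the trends removed (-0.0632 together, -0.0931 with GC alone, -0.0967 with principal transcripts). Without single libraries the effects ranged from 0.0009 to 0.43 for Mt1, 0.41 to 0.88 for Mt2 and -0.49 to -0.34 for Mt3.

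Uncalled differences changed sign in some settings. The genotype difference of Mt3 in controls was -0.16 without the libraries with Xist, -0.0732 with both trends removed, -0.0801 with GC alone and -0.0514 with principal transcripts. Without single libraries it ranged from -0.0743 to 0.0935, that of Mt1 from -0.21 to 0.0195, and that of Mt2 after SD from -0.42 to 0.052. The difference of SD effects of Mt1 was 0.27 without the libraries with Xist and ranged from -0.38 to 0.0535 without single libraries, and that of Mt2 from -0.0511 to 0.42. The cause of these changes was not tested.

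Replicate numbers are shared by few libraries, and the labels do not say whether they pair mice. In the comparisons where a block could be fitted, same-numbered libraries had correlations from -0.147 to 0.217. Those of differently numbered libraries ran from -0.368 to 0.302. In the genotype comparison after SD the same-numbered pairs (0.209 and 0.217) lay above all other pairs. With the replicate block the wild-type effects were 0.38, 0.34 and -0.38 for Mt1, Mt2 and Mt3. That of Mt3 in AcPb-/- mice was -0.35. None of these was called, and 0 genes were called in either genotype. The block terms used up most of the 4 residual degrees of freedom. An absence of calls was therefore likely in any case, and these fits cannot decide whether the effects hold. No paired analysis was possible for the genotype difference in controls because only 1 number is shared. Genes called after SD numbered 2937 without a filter, 2536 without a variance trend, 2360 at an adjusted p under 0.01, 2699 without CTL-WT replicate 02, 2941 without SD-WT replicate 01, 2836 without SD-WT replicate 02 and 680 without the libraries with Xist in wild-type mice, against 5186. In AcPb-/- mice they numbered 2656 at an adjusted p under 0.01, 3608 without a variance trend, 2080 without the libraries with Xist, and 3417, 3393 and 3575 without CTL-AcPbKO replicate 04 and SD-AcPbKO replicates 02 and 04, against 5633. Genes called between genotypes numbered 0 to 168 in controls and 0 to 99 after SD over all settings. The 14 metal handling genes called in wild-type mice became 3 without a filter, 5 without a variance trend and 5 to 21 without single libraries. In AcPb-/- mice they were 10 to 14 without single libraries.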
